A study of Canis lupus familiaris with 29 samples.

Results

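Somatostatin (SST), a peptide ligand, and its receptors (SSTR1 to SSTR5) were followed by RNA sequencing in normal adrenal medullas (NAMs) and in pheochromocytomas and paragangliomas (PPGLs) of dogs. The genes were chosen by symbol in the table of exon counts, and 4 of the 6 sought were found among 30951 genes. In the genome build CanFam 3.1, the exons of SST (ENSCAFG00000013891) span positions 20063090 to 20064557 of chromosome 34, on the minus strand. SSTR1 (ENSCAFG00000013755) lies on chromosome 8 from 16571198 to 16573285, on the plus strand. SSTR2 (ENSCAFG00000004498) lies on chromosome 9 from 6996874 to 7000778, on the minus strand, and SSTR3 (ENSCAFG00000001509) on chromosome 10 from 27329174 to 27330451, on the plus strand. SSTR4 and SSTR5 were not found by name in the count table.

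Somatostatin is an inhibitory peptide of neurons and endocrine cells, among them cells of the pancreatic islets and the gut. Its receptors couple to inhibitory G proteins, through which they lower the making of cyclic AMP, open potassium channels, close calcium channels and hold back hormone release. Neuroendocrine tumors can carry these receptors on their surface, where somatostatin analogues and radioactive tracers bind them, SSTR2 above all.

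The samples fell into NAMs (n = 10), PPGL group 1 (7 tumors) and PPGL group 2 (12 tumors), each from a different dog and each read as 1 library. The authors drew both PPGL groups from a principal component analysis of these same samples, so a p-value between the groups describes that split. NAMs came from healthy dogs and were snap-frozen, whereas PPGLs came from client-owned patients of several clinics and were snap-frozen or first placed in a stabilizing solution, so the origin and handling of the samples cannot be told apart from the tissue. No treatment, genotype or age was used to form the groups. Total counts ran from 19258054 to 35918182 in NAMs, from 18493540 to 31919833 in group 1 and from 18208718 to 24569667 in group 2. Levels are given as CPM, counts scaled for library size, after normalisation by the trimmed mean of M values (TMM). The smallest level taken as detectable was more than 3 counts, which lay between 0.0801 and 0.163 CPM in NAMs, 0.0897 and 0.173 CPM in group 1 and 0.117 and 0.168 CPM in group 2. These limits cover counting error only.

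The labelled tissue was checked against markers of chromaffin cells, the catecholamine-making cells of the medulla from which PPGLs arise. TH, DBH, CHGB, SYP and PHOX2A had more than 3 counts in every library. The summed level of the 11 chromaffin markers had a median of 32397 CPM in NAMs, 34269 CPM in group 1 and 48455 CPM in group 2. Markers of the list differed from NAMs in both directions. PHOX2A was at least 271 CPM in group 1 and 237 CPM in group 2, above every NAM (at most 212 CPM). Median SYP was 583 CPM in group 1 and 398 CPM in group 2, against 190 CPM in NAMs. Median HAND2 was 398, 158 and 89.1 CPM in the same order. The median of SCG2 in group 2 (4608 CPM) was above the highest NAM (4034 CPM). Other markers were low in many tumors. PNMT, the enzyme that makes adrenaline, reached at most 894 CPM in group 2 against at least 1590 CPM in NAMs, so all 12 tumors lay below every NAM. The medians of GATA3 in group 2 (26.4 CPM), SCG2 in group 1 (597 CPM) and SLC18A1 in groups 1 and 2 (271 and 289 CPM) were also below the lowest NAM (34.0, 859 and 356 CPM). Some tumors were lower still. TH, the rate-limiting enzyme of catecholamine synthesis, was 2.15 CPM in group 1 replicate 5 and 32.0 CPM in group 2 replicate 7, against at least 1056 CPM in NAMs. The granule proteins CHGB and SCG2 were 26.6 CPM in group 1 replicate 7 and 31.5 CPM in group 1 replicate 2, against at least 5770 and 859 CPM in NAMs, and the transcription factor gene GATA3 was 0.382 CPM in group 2 replicate 8. The tumors thus carried chromaffin markers, some of them below and some above the level of NAMs. Markers of the adrenal cortex, the steroid-making tissue around the medulla, were present in NAMs at a sum of 14223 to 68618 CPM (median 37617). That sum was 92.3 to 1168 CPM in group 1 (median 277) and 252 to 34444 CPM in group 2 (median 3674), and its most abundant gene by the median was CYP17A1 in NAMs and group 2 and STAR in group 1. In group 1 replicate 1, the tumor with 1168 CPM, STAR alone was at 1130 CPM. Cortical RNA was thus read in the NAMs beside chromaffin RNA, and group 1 had the least of it by the median.

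SST was a gene of few reads in all groups. In NAMs its level was lowest in replicate 1 (0.123 CPM, 3 counts), had a median of 0.368 CPM and was highest in replicate 3 (3.30 CPM, 86 counts), with a mean of 0.845 ± 1.01 CPM (SD, n = 10). In group 1 it was at 0 in 4 tumors, the lowest and the median being 0, and it reached 0.0659 CPM in replicate 7, 0.627 CPM in replicate 4 and 2.42 CPM in replicate 6. In group 2 it was at 0 in 10 of 12 tumors, with 0.0423 CPM (1 count) in replicate 10 and 0.497 CPM (11 counts) in replicate 4. SST was thus detectable in 9 of 10 NAMs but in 2 of 7 tumors of group 1 and 1 of 12 of group 2, and 11 tumors of group 2 and 5 of group 1 lay below every NAM. In tissue RNA, fewer cells that make SST and less SST RNA in each such cell cannot be told apart. The NAMs with the most SST, replicates 3 and 4, also had the highest chromaffin sums of their group (96855 and 63710 CPM), as had replicates 6 and 4 of group 1 (104383 and 119789 CPM). This did not hold throughout: NAM replicate 9, next by SST (1.19 CPM), had 27299 CPM, and group 2 replicate 4, at 63433 CPM, did not have the highest sum of its group.

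Between group 2 and NAMs, SST fell (log2 fold change −4.06 ± 1.04 SE, 95% interval −6.10 to −2.02, adjusted p = 0.00380). The size of this value depends on the prior count, since 11 of 12 tumors were at or under 3 counts: it was −2.84 with a prior count of 2. With the cortical score, the mean log2 level of the cortical markers, as a covariate, it was −2.21 with an adjusted p of 0.379. Group 1 against the same NAMs gave −0.95 ± 1.05 (adjusted p = 0.516), and −2.85 without replicate 6 (adjusted p = 0.0555). SST passed the filter on low counts only where the 3 groups were fitted together, so it was tested in neither of the other comparisons. It no longer passed that filter without NAM replicate 2, 3, 4 or 9 or without group 2 replicate 4, the libraries with the most SST in these groups. Without a filter, the adjusted p was 0.0865 for PPGLs against NAMs and 0.194 for group 1 against group 2. The other hormone genes of the pancreatic islet were looked at beside SST, since islet cells make it too. Glucagon (GCG) was at 0 in 9 of 10 NAMs and in all 7 and 12 tumors of groups 1 and 2, and insulin (INS) had a median of 0.507 CPM in NAMs, 0.279 CPM in group 1 and 0.483 CPM in group 2. The most abundant gene of the islet list by the median was HHEX, a transcription factor gene, in NAMs and group 1 and pancreatic polypeptide (PPY) in group 2. PPY reached 898 CPM in replicate 9 of group 2, where SST was at 0.

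**Figure D1:**
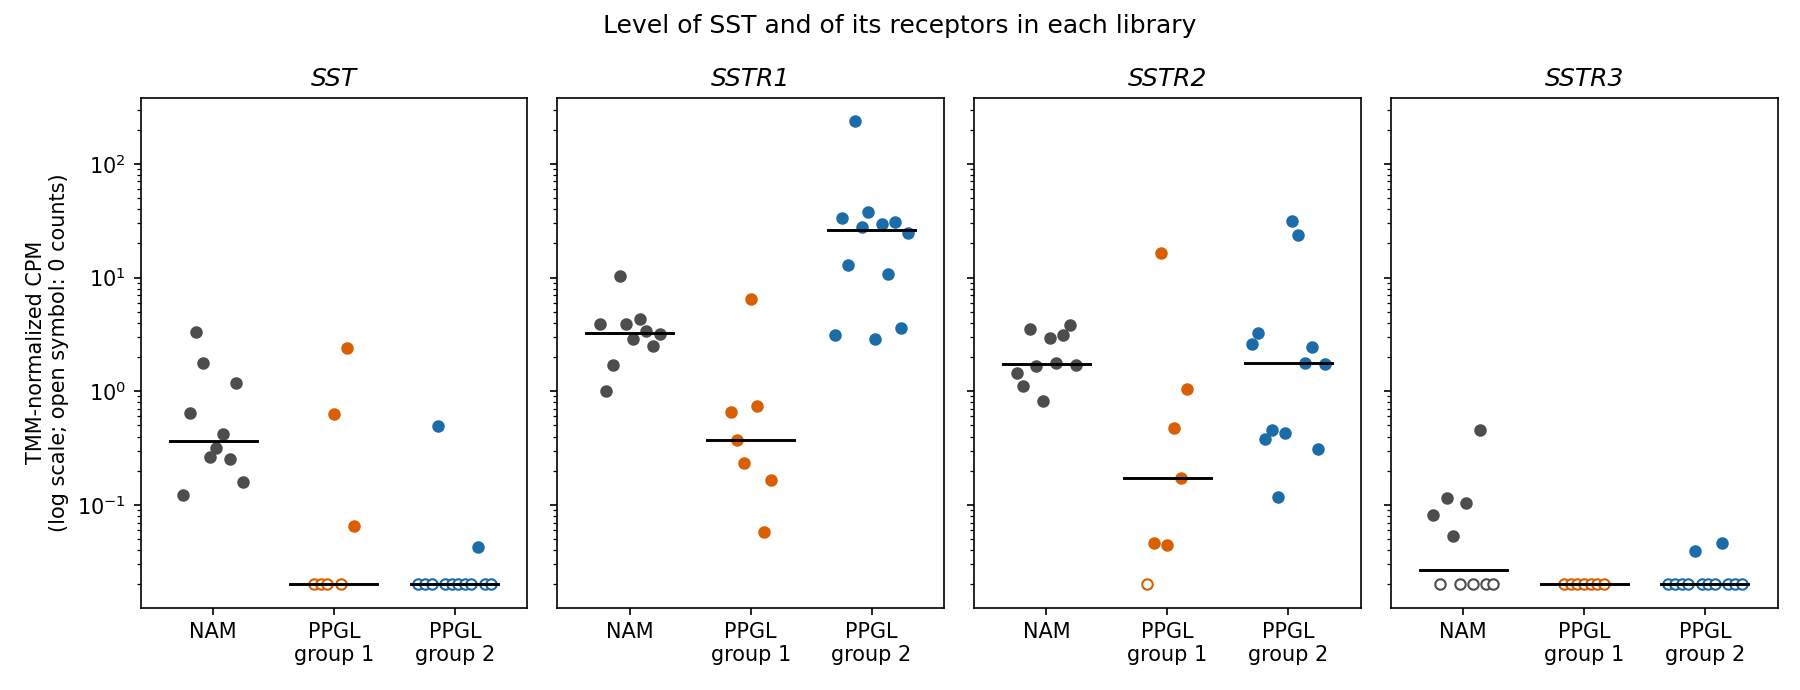
Levels of SST, SSTR1, SSTR2 and SSTR3 in each library, in TMM-normalised CPM on a log axis, for NAMs (10), PPGL group 1 (7) and PPGL group 2 (12). Each symbol is 1 library, open symbols at the foot of the axis are counts of 0 and black lines are medians, and the median of SSTR1 is 26.2 CPM in group 2 against 3.26 CPM in NAMs and 0.372 CPM in group 1.

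SSTR1, a receptor that binds somatostatin but has low affinity for most analogues in clinical use, had a count in every library and, of the members tested, passed the test between the tumor groups. In NAMs it ran from 1.00 CPM in replicate 2 to 10.4 CPM in replicate 4, with a median of 3.26 CPM and a mean of 3.71 ± 2.56 CPM (SD, n = 10). In group 1 it was 0.0575 CPM in replicate 6 (1 count, not detectable by the limit of 3), 0.372 CPM at the median and 6.49 CPM in replicate 4, with a mean of 1.25 ± 2.33 CPM (SD, n = 7). In group 2 it ran from 2.86 CPM in replicate 7 to 237 CPM in replicate 4, with a median of 26.2 CPM and a mean of 37.9 ± 64.1 CPM (SD, n = 12). Of the group 1 tumors, 6 of 7 lay below every NAM and below every group 2 tumor, and replicate 4 was the exception. In group 2, 9 of 12 tumors lay above every NAM and every group 1 tumor, and the others, replicates 7, 1 and 11, lay within the range of the NAMs. The top library, replicate 4, held 52.2% of the summed level of group 2, and the group mean without it was 19.7 CPM. Replicates 6, 2 and 10, next below it, stood at 37.6, 33.7 and 30.6 CPM.

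The comparison of the tumor groups asked in which of them each gene was higher. SSTR1 was lower in group 1 than in group 2 (log2 fold change −4.93 ± 1.10 SE, 95% interval −7.09 to −2.77, adjusted p = 0.0221). It was 1 of 2 members tested in this comparison, in which 3.97% of 14666 genes were higher and 2.95% were lower in group 1 at an adjusted p below 0.1. Among all genes tested it ranked 146 by p, and 53 genes had a lower log2 fold change. The difference was −6.60 without replicate 4 of group 1 and −3.99 without replicate 4 of group 2, and the adjusted p stayed between 0.00820 and 0.0441 without each tumor in turn. By the normal approximation, the Mann-Whitney U-test gave an adjusted p of 0.141. Over all genes that test called 0 genes, though 2131 had an unadjusted p below 0.05, whereas its exact form, chosen after seeing the data, called 404, edgeR 1015 and DESeq2 1793. The exact form gave SSTR1 an adjusted p of 0.0348 and DESeq2 gave 1.72e-07.

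Against NAMs, which both tumor groups share as controls, the fitted values of SSTR1 had opposite signs. In group 2 it rose (log2 fold change 3.37 ± 0.75 SE, 95% interval 1.90 to 4.84, adjusted p = 0.00121), and still did so at 2.42 without replicate 4 (adjusted p = 0.00429). In group 1 the value was −1.57 ± 0.83 with an adjusted p of 0.144 in edgeR, so it missed the threshold of 0.05. Without replicate 4 of group 1 it was −3.25 with an adjusted p of 0.00403, and on all samples the Mann-Whitney U-test gave an adjusted p of 0.0518 by the normal approximation and 0.0390 in its exact form, and DESeq2 0.0728. The low level of SSTR1 in group 1 against NAMs was therefore shared by 6 tumors, and 1 tumor set the side of the threshold. Of the 3 members tested, 1 was higher and 1 lower in group 2, where 18.4% of 15201 genes were higher and 14.5% lower. In group 1, where 21.0% of genes were higher and 14.1% lower, edgeR called 0 of 3, whereas the exact Mann-Whitney U-test called SSTR1 and DESeq2 called SSTR2. Shares of so few members say little beside those of all genes.

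With all PPGLs taken as 1 group against NAMs, SSTR1 was higher by a log2 fold change of 2.74 ± 0.95 (SE, adjusted p = 0.0240). That value averages over tumors on both sides of the NAMs, since 9 of 19 PPGLs lay above every NAM and 6 lay below. Without group 2 replicate 4 it was 1.77 with an adjusted p of 0.0742, and the Mann-Whitney U-test gave 0.537. It was 1 of 2 members tested, and 22.3% of 14766 genes were higher and 15.2% lower in PPGLs, so a call in this comparison was common and 1 of 2 says nothing particular about the receptors.

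Cortical RNA and SSTR1 were both lower in group 1 than in group 2, and both stood lower in most group 1 tumors than in NAMs, whereas group 2 had less cortical RNA and more SSTR1 than NAMs. The cortical score was 1.44 ± 1.43 in group 1 (SD, n = 7) and 6.74 ± 1.86 in group 2 (SD, n = 12). By edgeR, 9 of 10 cortical markers were lower in group 1 than in group 2, beside 2.95% of all genes. The Mann-Whitney U-test called 9 of them in its exact form and 0 by the normal approximation. The defining markers MC2R and NR0B1 were at 0 in 4 and 6 of the 7 group 1 tumors, and at 0 in none of the other libraries. The score was highest in NAMs, at 9.96 ± 0.71 (SD, n = 10), and their SSTR1 stood below that of 9 of 12 tumors of group 2. Within group 2, replicate 7 had both the lowest score (3.26) and the lowest SSTR1 (2.86 CPM), and replicate 11, with the next lowest score (4.42), had 3.57 CPM. Replicate 10, with the highest score (9.93), had 30.6 CPM, but replicate 1, with a score of 8.19, had 3.12 CPM. With the score as a covariate, the log2 fold change between the tumor groups was −1.66 with an adjusted p of 0.840, that of group 2 against NAMs was 4.54 with an adjusted p of 0.00858, and that of all PPGLs against NAMs was 5.58 with an adjusted p of 0.000325. The scores of the tumor groups overlapped only in group 1 replicate 6 (3.74) and group 2 replicate 7 (3.26), so group and score could hardly be told apart in the fit between them. Of all PPGLs, only group 2 replicate 10 (9.93) lay within the range of the NAM scores. The same limit thus holds for group 2 and for all PPGLs against NAMs. The scores of group 1 (−0.19 to 3.74) and NAMs (8.91 to 10.94) did not overlap, so group and score could not be told apart there, and SSTR1 in group 1 against NAMs changed sign to 1.76 and did not pass. The part of cortical RNA in the difference between the tumor groups was not tested beyond these fits.

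**Figure D2:**
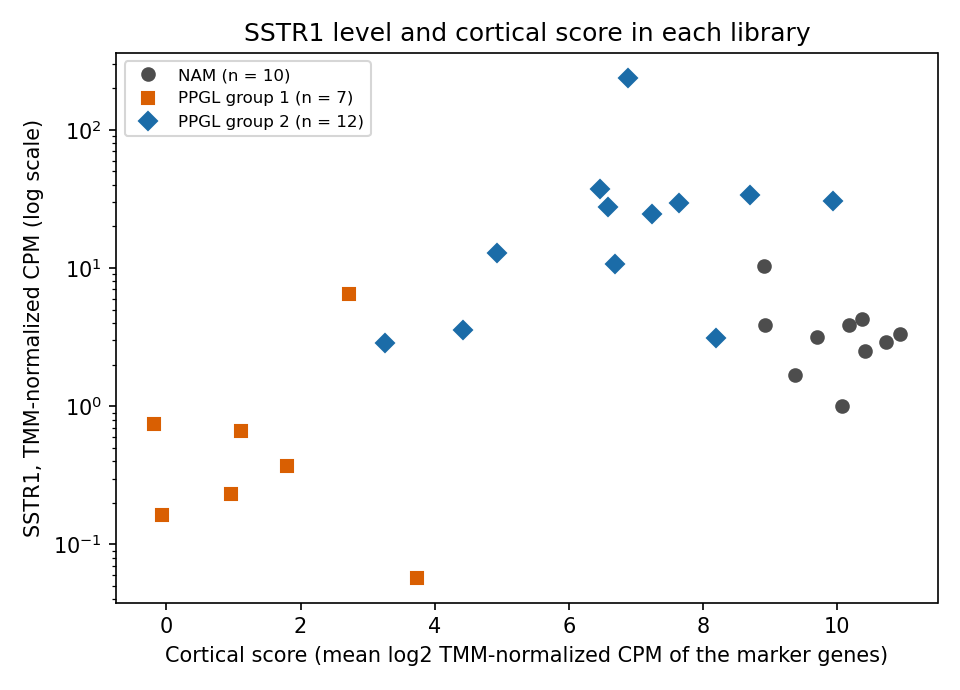
SSTR1 in TMM-normalised CPM on a log axis against the cortical score, the mean log2 level of 10 cortical markers, with 1 symbol for each of 29 libraries and a colour for NAMs, PPGL group 1 and PPGL group 2. NAMs have the highest scores (8.91 to 10.94) at 1.00 to 10.4 CPM of SSTR1, and group 2 replicate 4 has 237 CPM at a score of 6.88.

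SSTR2, the receptor that most somatostatin analogues and tracers bind best, varied widely from tumor to tumor within each group. In NAMs it ran from 0.828 CPM in replicate 5 to 3.79 CPM in replicate 9, with a median of 1.73 CPM and a mean of 2.19 ± 1.06 CPM (SD, n = 10). In group 1 it was 0 in replicate 1, 0.173 CPM at the median and 16.6 CPM in replicate 3, with a mean of 2.62 ± 6.16 CPM (SD, n = 7). In group 2 it ran from 0.118 CPM in replicate 5 to 31.5 CPM in replicate 7, with a median of 1.76 CPM and a mean of 5.72 ± 10.4 CPM (SD, n = 12). High SSTR2 was thus a trait of 3 tumors, replicate 3 of group 1 and replicates 7 and 8 of group 2 (23.6 CPM), which alone lay above every NAM. Of these, replicate 7 had the lowest TH of group 2 and replicate 8 the lowest GATA3, a marker that was low in much of that group. Replicate 7 also had the highest PHOX2A of group 2 (890 CPM), and replicate 3 that of group 1 (892 CPM). The chromaffin sum of replicate 7 (61429 CPM) was above its group median (48455 CPM). Those of replicate 8 (26142 CPM) and of group 1 replicate 3 (18768 CPM) were below the medians of their groups. Below every NAM lay 5 tumors of group 1 and 5 of group 2, and the rest overlapped with NAMs. Replicate 3 held 90.2% of the summed level of group 1, and the group mean without it was 0.299 CPM.

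SSTR2 did not pass the edgeR test in any of the 4 comparisons. Its log2 fold change was 1.08 ± 0.88 between PPGLs and NAMs (adjusted p = 0.353), −1.13 ± 1.26 between groups 1 and 2 (adjusted p = 0.666), and 1.39 ± 0.95 between group 2 and NAMs (adjusted p = 0.265). Between group 1 and the same NAMs it was 0.28 ± 1.06 (adjusted p = 0.864). The last of these turned on a single tumor: without replicate 3 of group 1 it was −2.79 with an adjusted p of 0.0452, and the difference from group 2 became −4.19 with an adjusted p of 0.0968. Without replicate 7 of group 2, the value was 0.62 for group 2 against NAMs (adjusted p = 0.627) and −0.36 between the tumor groups (adjusted p = 0.903). DESeq2 gave −2.21 with an adjusted p of 0.0302 for group 1 against NAMs and −2.90 with an adjusted p of 0.0239 between the tumor groups. An edgeR fit with the cortical score gave −3.18 between the tumor groups (adjusted p = 0.669) and 0.16 for group 2 against NAMs (adjusted p = 0.958). A fit with the replicate number as a block gave −2.57 (adjusted p = 0.641) and 0.39 (adjusted p = 0.801) in the same order. With or without replicate 3, most group 1 tumors had less SSTR2 than any NAM.

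SSTR3, a further receptor of the family, was barely read. Its counts in NAMs summed to 19, of which 9 came from replicate 8 (0.458 CPM), and 5 NAMs were at 0. All 7 tumors of group 1 were at 0, and in group 2 replicates 5 and 9 had 1 count each. SSTR3 was detectable in 1 NAM and in no tumor, so no fold change is given, and lower levels could not be seen at this depth. It did not pass the filter in any comparison. Without a filter its adjusted p was 0.00152 for PPGLs, 0.0107 for group 1 and 0.0270 for group 2 against NAMs, on those few counts.

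Receptor levels can be set beside each other only per length, as CPM per kilobase (kb) of exon, with exon lengths of 1644 bases for SSTR1, 1303 for SSTR2 and 1278 for SSTR3. SSTR4 and SSTR5 were not found by name, so every ranking here is among the 3 receptors found. On that scale SSTR1 was the highest receptor in 5 of 10 NAMs, 4 of 7 tumors of group 1 and 9 of 12 tumors of group 2. SSTR2 was the highest in all the others, among them group 1 replicate 6 with 3 counts of SSTR2 and 1 of SSTR1, too few to rank them. The sum of the 3 receptors had a median of 3.91 CPM per kb in NAMs (1.47 to 7.63), 0.822 in group 1 (0.167 to 12.8) and 18.7 in group 2 (2.41 to 145). SSTR1 made up a median of 51.2% of that sum in NAMs (26.6% to 82.8%), 55.3% in group 1 (1.10% to 100%) and 90.5% in group 2 (6.70% to 99.8%). Medullas thus carried both receptors, at a ratio of SSTR1 to SSTR2 from 0.375 to 4.97, most tumors of group 2 carried mainly SSTR1, and most tumors of group 1 carried little of either. Single tumors stood apart in which receptor they had: group 2 replicate 4 had 144 CPM per kb of SSTR1 and 0.347 of SSTR2, replicate 7 had 1.74 and 24.2, and replicate 8 had 18.1 of SSTR2 and a like level of SSTR1. In group 1, SSTR2 was detectable and the highest receptor in replicates 3 and 7.

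**Figure D3:**
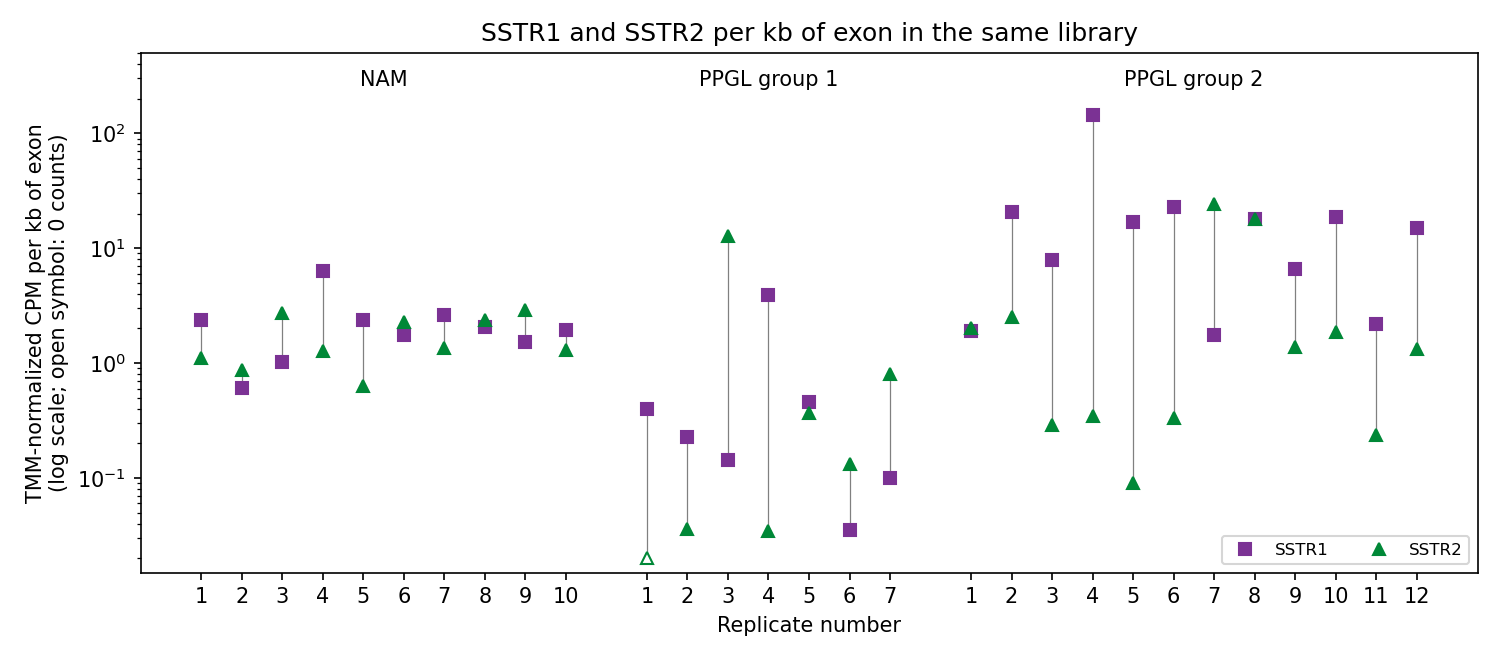
Levels of SSTR1 and SSTR2 in TMM-normalised CPM per kb of exon in each library of NAMs (10), PPGL group 1 (7) and PPGL group 2 (12). SSTR1 is the higher in 9 of 12 tumors of group 2, up to 144 CPM per kb in replicate 4, and SSTR2 is the higher in replicates 1, 7 and 8 of that group.

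Across the 19 PPGLs, the levels of SSTR1 and SSTR2 showed no relation that passed a test. On log2 CPM, Pearson's r was 0.13 (permutation p = 0.595) and Spearman's rho 0.18 (permutation p = 0.463), in the 1 pair of genes that was computed. Within group 1 r was −0.39 (exact permutation p = 0.357) and rho −0.50 (exact permutation p = 0.267), and within group 2 r was −0.29 (permutation p = 0.364) and rho −0.15 (permutation p = 0.651). Without group 1 replicate 6 and group 2 replicate 4, whose SSTR1 was farthest from the median, r was 0.12 (permutation p = 0.643). The sign thus differed between the pooled tumors and each group. The genes whose levels followed SSTR1 most closely over the 19 PPGLs, among 14665, were ENSCAFG00000040735 (rho 0.856), BIN3 (0.821) and ENSCAFG00000046536 (0.815), the first and last having no symbol. For SSTR2 they were BICDL2 (0.813), SLC25A29 (0.805) and AQP6 (0.798). These are descriptions over tumors of 2 unlike groups, with no test.

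The pathway around the receptors was followed in 8 lists, from peptide processing to scaffolds and other tracer targets, of which 61 of 66 symbols other than those of SST and its receptors were found by name. Between PPGLs and NAMs, 56 were tested: 11 were higher (19.6%) and 12 lower (21.4%), beside 22.3% and 15.2% of all genes tested, and their median log2 fold change was −0.07 against 0.13 for all genes. With the cortical score as a covariate 11 of the 23 calls were kept, and 16 were kept without any 1 library. Pathway genes thus passed the test in both directions, and whether their shares differ from those of all genes was not tested.

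Counts by list stand beside 22.3% of all genes higher and 15.2% lower in PPGLs. Of the genes that process the peptide, 1 of 5 tested passed: FURIN, a convertase, fell in PPGLs (−0.77, adjusted p = 0.00837). In the list for inhibitory G proteins, which holds alpha subunits and beta subunits, 4 of 10 genes were lower and 0 higher in PPGLs. GNAI1 was the only alpha subunit among the 4. The beta subunit GNB4 fell from a mean of 25.1 to 8.92 CPM (log2 fold change −1.47, adjusted p = 7.32e-05) and GNB5 by −0.69 (adjusted p = 0.0142). The calls of GNAI1 (−0.82, adjusted p = 0.0462) and GNB1 (−0.28, adjusted p = 0.0452) were each lost without any of 18 libraries. Of the 9 adenylyl cyclases, which make cyclic AMP, ADCY3 was higher (1.80, adjusted p = 0.00109), and ADCY2 (−2.05, adjusted p = 0.00611), ADCY8 (−2.04, adjusted p = 0.0494) and ADCY9 (−0.93, adjusted p = 0.000121) were lower. ADCY8 was close to the threshold: its call was lost without any of 23 libraries, with an adjusted p of up to 0.103, and it was −2.83 without replicate 2 of group 1. Of 6 channel genes tested, 1 passed, the calcium channel subunit CACNA1D, which rose from 53.0 to 185.5 CPM (1.83, adjusted p = 0.00169). When the cortical score was a covariate, the calls of FURIN (−0.49, adjusted p = 0.334), GNB5 (−0.83, adjusted p = 0.0839) and ADCY3 (0.90, adjusted p = 0.223) were lost, and GNAI1, ADCY2 and ADCY8 were at −1.63, −2.96 and −4.47.

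Of 6 genes tested that switch receptors off, 4 were higher and 1 lower in PPGLs, beside 22.3% and 15.2% of all genes. The receptor kinases GRK6 (0.81, adjusted p = 0.000964) and GRK3 (0.71, adjusted p = 0.0219) rose, and GRK5 fell from a mean of 198 to 33.1 CPM (−2.57, adjusted p = 2.94e-06). The arrestin ARRB1 (0.62, adjusted p = 0.0380) and GRK2 (0.53, adjusted p = 0.0365) passed too, but lost the call without any of 11 and 10 libraries. Both also lost it with the Mann-Whitney U-test (adjusted p = 0.0882 and 0.123) and in edgeR without a filter (adjusted p = 0.0536 and 0.0528). A fit with the cortical score gave GRK2 −0.0045. The 4 higher calls were all lost in that fit, where GRK6 was 0.64 (adjusted p = 0.0799), GRK3 0.44 (adjusted p = 0.364), ARRB1 0.44 (adjusted p = 0.382) and GRK2 had an adjusted p of 0.993, and GRK5 was −1.56 (adjusted p = 0.00687). Among the scaffolds that bind receptor tails, SHANK1 (1.25, adjusted p = 0.00158) and SHANK2 (0.96, adjusted p = 0.00423) were higher and MPDZ (−1.27, adjusted p = 0.000121) was lower, so that each of the 3 tested passed. Among 7 phosphatases and antiproliferative mediators 1 passed, the zinc finger gene PLAGL1 (0.95, adjusted p = 0.0336), whose call was lost without any of 9 libraries. SHANK2 (0.78, adjusted p = 0.118) and PLAGL1 (0.10, adjusted p = 0.894) lost the call as well when the score was included.

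Targets of other nuclear medicine tracers were read in the same libraries. Between PPGLs and NAMs, 2 of 10 tested were higher and 2 lower, shares close to the 22.3% and 15.2% of all genes. FAP, a protease of activated fibroblasts, was higher (4.48, adjusted p = 0.000824; 3.24 without group 2 replicate 11, adjusted p = 0.000617), and the glucose transporter SLC2A3 rose (1.95, adjusted p = 0.00373). FOLH1, which encodes the prostate-specific membrane antigen, fell from 7.83 to 1.73 CPM (−2.15, adjusted p = 7.84e-05), and the amino acid transporter SLC7A5 was lower (−1.39, adjusted p = 0.0165), but not without NAM replicate 3 (−0.95, adjusted p = 0.0935). The fit with the cortical score lost the calls of FAP (3.69, adjusted p = 0.0649), FOLH1 (−1.45, adjusted p = 0.0641) and SLC7A5 (−1.85, adjusted p = 0.0538). Of the fibroblast and mural markers, 5 of 8 were higher in PPGLs too, and their sum was highest in the same tumor, group 2 replicate 11 (20141 CPM); their part in FAP was not tested.

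Between the tumor groups, edgeR called 1 of 56 pathway genes higher (1.79%) and 2 lower (3.57%) in group 1, beside 3.97% and 2.95% of all genes, so the shares say nothing particular about the pathway. An unadjusted p below 0.05 was reached by 15, DESeq2 called 12, and both forms of the Mann-Whitney U-test called 0. The carboxypeptidase CPE, which trims peptide hormones, was lower in group 1 (−1.18, adjusted p = 0.0453), with a mean of 171.5 CPM against 392 CPM. ADCY5 was lower (−1.82, adjusted p = 0.0846) and the calcium channel subunit CACNA1B higher (1.14, adjusted p = 0.0692), and these calls were lost without any of 7 and 5 tumors. ADCY5 was −1.21 without group 2 replicate 11. With the cortical score as a covariate, a fit that called 200 genes, 0 of the 3 calls were kept: CPE was −0.99 (adjusted p = 0.595), ADCY5 −3.12 (adjusted p = 0.110) and CACNA1B 0.57 (adjusted p = 0.851). A lost call in that fit thus did not always go with a smaller difference.

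Against the NAMs they share, 57 pathway genes were tested in each tumor group. In group 1, 9 were higher and 9 lower (15.8% each), beside 21.0% and 14.1% of all genes, and 0 of these 18 calls were kept with the cortical score as a covariate, a fit that called 17 genes in all. In group 2, 9 were higher (15.8%) and 13 lower (22.8%), beside 18.4% and 14.5%, and 7 of 22 were kept. GRK5 fell in both, by −3.50 in group 1 (adjusted p = 2.17e-06) and −2.22 in group 2 (adjusted p = 3.81e-05). The convertase PCSK5 was lower in group 2 (−1.70, adjusted p = 0.00292), and CPE in group 1 (−1.06, adjusted p = 0.00557). The vesicular monoamine transporter SLC18A2 was higher in group 2 (2.90, adjusted p = 0.0474), a call that was lost without any of 17 libraries. The chemokine receptor CXCR4 was lower in group 1 (−2.32, adjusted p = 0.0192), a call also lost with the Mann-Whitney U-test and with the replicate number as a block. Whether these genes differ between the tumor groups is given only by the comparison of those groups, in which CPE alone of them passed.

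Markers of other cells that a tumor or medulla can hold were summed in each library. Fibroblast and mural markers, with RGS5 the most abundant, ran from 415 to 1817 CPM in NAMs (median 1072), 1522 to 3923 in group 1 (1960) and 1269 to 20141 in group 2 (2323). Endothelial markers ran from 437 to 1261 CPM in NAMs (median 720), 200 to 1027 in group 1 (426) and 255 to 866 in group 2 (422), and 5 of 8 were lower in PPGLs. Neuron markers had medians of 962, 830 and 437 CPM in NAMs, group 1 and group 2, with NEFM, STMN2 and SNAP25 the most abundant by the median in turn, and 2 of 6 were higher and 2 lower in PPGLs. These counts stand beside 22.3% of all genes higher and 15.2% lower in PPGLs, and no test over a list was made. Leukocyte markers had medians of 201, 149 and 149 CPM, with 3 of 9 higher and 1 lower in PPGLs, and reached 1001 CPM in group 2 replicate 11. Schwann and sustentacular markers had medians of 108, 31.6 and 30.6 CPM, and edgeR called 0 of 6 in PPGLs against NAMs, with 2 at an unadjusted p below 0.05, 2 called by DESeq2 and 3 by the Mann-Whitney U-test. Liver and kidney markers had medians of 85.5, 46.2 and 67.3 CPM, with 2 of 3 higher and 1 lower, and islet markers medians of 11.0, 8.14 and 29.6 CPM, with 1 of 3 higher. Between the tumor groups, where SSTR1 differed, edgeR called 0 of 43 markers of these 7 lists, with 11 at an unadjusted p below 0.05, 3 called by DESeq2, 1 by the exact Mann-Whitney U-test and 0 by its normal approximation, beside 3.97% of all genes higher and 2.95% lower. Of those 11, 5 were among the 8 fibroblast and mural markers, whose median log2 fold change was −1.95, the same sign as that of SSTR1; their part in the SSTR1 difference was not tested. Of 11 chromaffin markers edgeR called 1, HAND2, which was higher in group 1. Of the same markers, 5 had an unadjusted p below 0.05 in edgeR, DESeq2 called 4, and both forms of the Mann-Whitney U-test called 0. The chromaffin list in PPGLs against NAMs had 3 higher (SYP, PHOX2A and HAND2) and 1 lower (PNMT), and SLC18A1 stands both in it and among the tracer targets.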

How the data were processed

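The authors deposited raw counts of exon reads for every Ensembl gene, aligned to CanFam 3.1, beside the exon length of each gene in bases. The strand setting of the counting is not stated. All counts were checked to be whole, no pair of the 29 libraries was identical, and 24051 of 30951 genes had a count. The 4 members found and the pathway and marker lists were chosen with earlier results of these data known.

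Counts were filtered with filterByExpr (minimum count 10, minimum total 15), normalised by TMM and tested with the quasi-likelihood F test of edgeR, with Benjamini-Hochberg adjustment over all genes tested. PPGLs were compared with NAMs, and group 1 with group 2 in PPGLs alone. A fit of 3 groups gave each tumor group against NAMs. Thresholds were an adjusted p of 0.05, and 0.1 between the tumor groups. All tests were two-sided. SE is the absolute log2 fold change divided by the square root of F, and intervals use the normal quantile. Log2 levels used a prior count of 2. Correlations used 100000 permutations, or all 5040 in group 1.

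Named were all members found, up to 4 genes per direction of each pathway list with the largest log2 fold change among those that passed, and the 3 genes with the highest rho to a member; of the 2 tumor groups against NAMs, examples were chosen after their values were seen. The lists covered peptide processing, receptors, Gi/o proteins, adenylyl cyclases, channels, phosphatases and antiproliferative mediators, desensitisation, scaffolds and other tracer targets, and markers of chromaffin, adrenal cortex, endothelial, leukocyte, Schwann and sustentacular, fibroblast and mural, pancreatic islet, liver and kidney and neuron cells. CORT, SHANK3, PDZK1, CYP11B2, ALB and TUBB3 were not found by name, nor were ADRBK1 and ADRBK2, older symbols of GRK2 and GRK3, which were found.

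Alternatives were DESeq2 size factors, the DESeq2 Wald test, a Mann-Whitney U-test by normal approximation, no filter, a filter of 1 CPM, a prior count of 2 for the fold change, the replicate number as a block, the cortical score as a covariate, and each library left out in turn. An exact Mann-Whitney U-test was added after seeing the data. The steps were tested on simulated data. R 4.3.3, edgeR 4.0.16, DESeq2 1.42.0, limma 3.58.1, Python 3.11.15 and matplotlib 3.10.9 were used.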

Additional observations from a re-analysis of the deposited data

Results flagged for a closer look

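SSTR3 in NAM replicate 8 lay far above the other NAMs, at a log2 level of −0.88 (0.458 CPM) against −2.33 (0.115 CPM) in the next library. This is 9 counts against 3, so the gap is one of few reads. Of 7 gene and group sets tested in this way it was the only one that stood out, and chance picks out about 1 in 20 such sets where values are not tied. For SSTR3, 5 NAMs were tied at 0, so that rate does not carry over to it. The 7 sets do not cover every gene and group. SST in group 2 replicate 4 also stood apart, at a log2 level of −0.78 (11 counts) against −2.99 (1 count) in the next library.

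SSTR1 differed between the tumor groups by a log2 fold change of −4.93. Its edgeR values against NAMs had opposite signs, 3.37 in group 2 (adjusted p = 0.00121) and −1.57 in group 1 (adjusted p = 0.144). That of group 1 did not pass. With the cortical score as a covariate in edgeR, the difference between the tumor groups was −1.66 (adjusted p = 0.840). The groups were drawn by the authors from these same samples.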

How the results depend on the processing

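Of 10 member log2 fold changes, 10 kept their direction and side of the threshold with DESeq2 size factors, with no filter and with a prior count of 2, and 8 of 8 with a filter of 1 CPM. With the replicate number as a block, 6 of 10 did: SSTR1 was 1.81 (PPGLs against NAMs, adjusted p = 0.193) and −2.71 (group 1 against NAM, adjusted p = 0.00337), and SSTR2 −0.34 and −2.06. These numbers do not pair the animals: same-number libraries correlated at −0.226 to 0.242, and 2 of 24 were closest to their own number. The block left 47 genes between the tumor groups, against 1015. With the cortical score, 5 of 10 held: SSTR1 was −1.66 between the tumor groups and 1.76 in group 1 against NAM, SSTR2 −2.64 and SST 3.76 there, and SST −2.21 in group 2 against NAM; GRK2 in PPGLs was −0.0045. Genes called were then 2187 against 5541 (PPGLs against NAMs), 200 against 1015 (tumor groups), 17 against 5331 (group 1 against NAM) and 1113 against 5005 (group 2 against NAM). The Mann-Whitney U-test leaves the fold changes, 2.74 for SSTR1 in PPGLs and −4.93 between the tumor groups, but not their calls, and it called 0 genes between the tumor groups and 3391 in group 1 against NAM; its exact form called 404 and 4303, with SSTR1 at −1.57 passing in the last. DESeq2 gave SSTR2 −2.90 between the tumor groups and −2.21 in group 1 against NAM, with 1793 genes between the tumor groups. The cause was not tested.

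Without each library in turn, 256 of 260 values were unchanged in direction and side. SSTR1 ran from 1.77 to 3.05 (PPGLs against NAMs), −6.60 to −3.99 (tumor groups), −3.25 to −1.25 (group 1 against NAM) and 2.42 to 3.68 (group 2 against NAM). SSTR2 ran from 0.50 to 1.20, −4.19 to −0.36, −2.79 to 0.50 and 0.62 to 1.52 in the same order, and SST from −2.85 to −0.71 and −4.19 to −3.95 in the last 2. SST was tested in 24 of 29 of these fits, not in those without NAM replicate 2, 3, 4 or 9 or group 2 replicate 4, the libraries with the most SST of their groups, so its ranges do not cover them. The planned coding length of the RefSeq protein was not run. SST and SSTR3 rest on few counts, so lower levels could not be seen at this depth.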
